A study of Mus musculus with 4 samples.

Results

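*Alx1*, *Alx4*, *Prrx1*, *Prrx2*, *Msx1* and *Msx2* encode homeodomain transcription factors of embryonic mesenchyme, and their RNA was followed in mouse larynx tissue with and without *Shh*. These 6 genes, of 46983 listed in the gene tables, were picked by symbol as Alx, Prrx and Msx genes with the *Shh*-/- against WT values already known, so that contrast is given for them as a description with no test. Larynx tissue was dissected at E10.5 (32 to 35 somites) from *Shh*-/- embryos and from WT Swiss Webster embryos, and 3 larynxes were combined in each of 2 *Shh*-/- pools (1 and 2) and 2 WT pools (4 and 6). The methods of the paper describe the dissected tissue as vocal fold. The mutant carries the *Shh*tm1amc null allele, kept on the Swiss Webster background, which removes *Shh* from the whole embryo and not from the larynx alone. The sample labels write the mutant genotype as *Shh*+/-, whereas the series description and the paper give *Shh*-/-, and the latter is used here. The labels name no agent for either group. Each pool is a sample of several embryos, so differences between embryos within a pool cannot be seen.

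Homeodomain proteins bind DNA with a short helical fold whose last helix lies in the major groove and reads AT-rich cores. *Alx* and *Prrx* genes belong to the paired class and are known for the mesenchyme of the face, skull and limb, while *Msx* genes belong to the NK-like class, encode repressors, and are classical targets of BMP signaling in neural crest, limb and tooth mesenchyme. In the limb bud, *Alx4* is known to keep *Shh* out of the anterior margin.

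The homeoboxes of *Alx1*, *Alx4*, *Prrx1*, *Prrx2* and *Msx2* are shown because this coding stretch defines the set. Each run is 180 coding bases (60 codons), 5′ to 3′, read from GENCODE M21 transcripts on GRCm38. Capitals mark codons 41 to 58, which hold the DNA-recognition helix.
Alx1: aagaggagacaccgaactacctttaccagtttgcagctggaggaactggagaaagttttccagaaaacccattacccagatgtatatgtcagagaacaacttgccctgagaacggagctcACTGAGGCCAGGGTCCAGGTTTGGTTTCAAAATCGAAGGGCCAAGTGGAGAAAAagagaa
Alx4: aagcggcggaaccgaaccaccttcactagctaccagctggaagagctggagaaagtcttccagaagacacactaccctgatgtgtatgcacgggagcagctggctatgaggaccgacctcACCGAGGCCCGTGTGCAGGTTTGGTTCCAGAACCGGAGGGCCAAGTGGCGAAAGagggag
Prrx1: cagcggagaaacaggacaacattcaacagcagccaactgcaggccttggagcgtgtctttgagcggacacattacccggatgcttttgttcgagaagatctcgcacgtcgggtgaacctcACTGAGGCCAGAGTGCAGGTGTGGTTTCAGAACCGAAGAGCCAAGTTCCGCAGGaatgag
Prrx2: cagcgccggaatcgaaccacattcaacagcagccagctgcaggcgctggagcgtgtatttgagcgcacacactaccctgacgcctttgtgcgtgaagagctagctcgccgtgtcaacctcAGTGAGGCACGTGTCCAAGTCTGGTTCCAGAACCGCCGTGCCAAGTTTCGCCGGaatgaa
Msx2: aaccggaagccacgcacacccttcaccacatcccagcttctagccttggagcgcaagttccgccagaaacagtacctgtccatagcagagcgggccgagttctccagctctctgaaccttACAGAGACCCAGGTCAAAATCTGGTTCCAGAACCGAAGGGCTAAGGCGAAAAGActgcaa

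The *Alx* and *Prrx* homeoboxes were each divided by an intron after base 138, leaving 42 bases in the next exon. For *Alx1* the blocks lie in exons 3 and 4 at chr10:103025135-103025272 and chr10:103022264-103022305 (minus strand). For *Alx4* they lie in exons 2 and 3 at chr2:93668528-93668665 and chr2:93675296-93675337 (plus strand). The *Prrx1* blocks are in exons 2 and 3 at chr1:163261840-163261977 and chr1:163257901-163257942 (minus strand), and those of *Prrx2* in exons 2 and 3 at chr2:30878454-30878591 and chr2:30879492-30879533 (plus strand). The *Msx2* homeobox was undivided, in exon 2 of 2, at chr13:53468370-53468549 (minus strand). The intron position was thus common to the paired-class genes, and among these 5 homeoboxes base identity was highest within a family. *Prrx1* and *Prrx2* shared 142 of 180 bases (78.9%), and *Alx1* and *Alx4* 138 (76.7%). *Alx* against *Prrx* gave 60.6 to 69.4% and *Msx2* against these 4 genes 52.8 to 55.6%. Among the homeoboxes shown, the longest run of identical bases was 17, between *Prrx1* and *Prrx2*. No stretch of 50 bases was shared between transcripts of any 2 of the 6 genes. Of 5888 such stretches of *Alx1*, 194 (3.29%) also occurred in *Gm17028*, a predicted gene on the same strand, and the shares for the other 5 genes were 0 to 0.465%.

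The 4 libraries held an inferred 1.37, 3.13, 2.85 and 2.97 gigabases of aligned sequence (*Shh*-/- 1, *Shh*-/- 2, WT 4 and WT 6). Each value is the most common ratio of coverage to FPKM among genes with an FPKM above 5. That ratio was taken to be the one of genes with a single transcript. *Shh* had a TPM (a length-scaled share of all transcripts in a library) of 10.4 in *Shh*-/- 1, 10.8 in *Shh*-/- 2, 23.7 in WT 4 and 42.1 in WT 6 (limma adjusted p = 0.0895). The tables hold a single value per gene, not per exon, so RNA from the deleted part could not be separated. *Ptch1*, a direct HH target and receptor, fell from 57.8 and 55.1 TPM in WT to 12.9 and 13.8 TPM (log2 difference -2.0, SE 0.12, adjusted p = 0.0319, limma). Of 16972 genes whose TPM averaged 1 or more, 123 (0.725%) passed an adjusted p of 0.05, with *Shh*-/- higher for 95 (0.56%) and lower for 28 (0.165%). Leaving out WT 6 gave 16 such genes, and leaving out any other pool gave 0, so each call below rests on all 4 pools. With 1 pool left out, 2070 to 3761 genes had an unadjusted p under 0.05. In the fit on all 4 pools 24.8% of genes did so, the level beside which the unadjusted counts of the lists below stand. The median gene differed by 0.19 between the *Shh*-/- pools and by 0.18 between the WT pools on the log2(TPM + 1) scale.

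Of the 6 genes, 5 had both *Shh*-/- pools above both WT pools (*Alx4*, *Msx1*, *Msx2*, *Prrx1* and *Prrx2*), and *Alx1* overlapped between groups. Over all tested genes, 38.0% had both *Shh*-/- pools above both WT pools, 22.7% had both below and 39.3% overlapped. The median log2 difference of the 6 genes was 1.43, beside 0.08 over all tested genes. Because the genes were picked on this contrast, nothing is read from these counts. In pools of whole tissue, more cells of a type and more RNA per cell cannot be told apart.

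**Figure D1:**
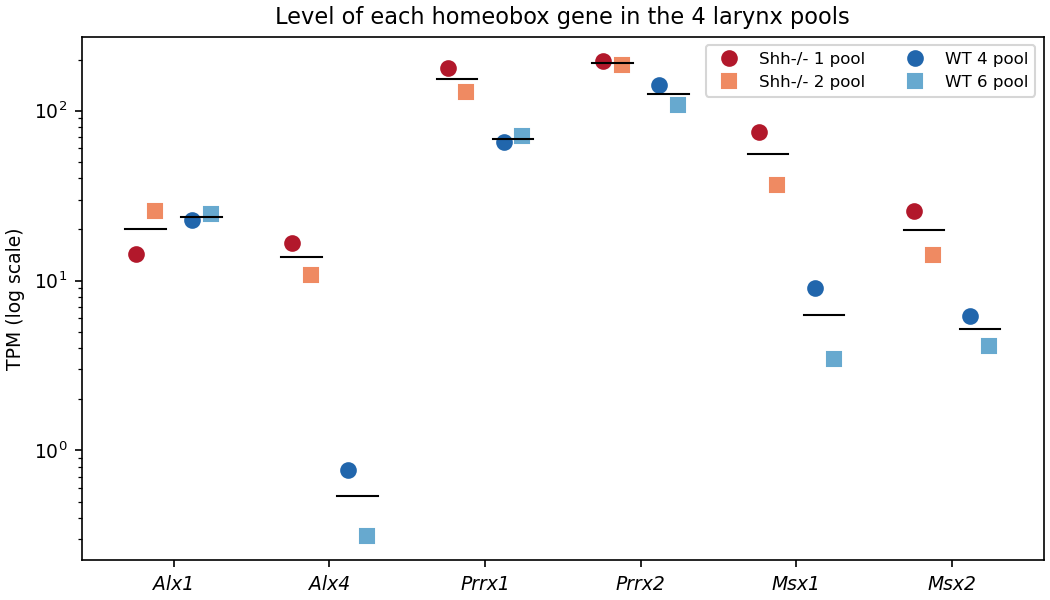
TPM (log axis) of the 6 genes in each pool, with *Shh*-/- pools in red, WT pools in blue, circles for *Shh*-/- 1 and WT 4, squares for *Shh*-/- 2 and WT 6, and bars for group means. *Alx4*, *Msx1*, *Msx2*, *Prrx1* and *Prrx2* separate by genotype, from 25.6-fold for *Alx4* to 1.53-fold for *Prrx2*, and *Alx1* overlaps.

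*Msx1* (ENSMUSG00000048450.10, chr5:37820485-37824583 in mm10, minus strand), a repressor needed for palate and tooth formation, was at 74.6 and 36.3 TPM in *Shh*-/- pools 1 and 2 and at 9.02 and 3.47 TPM in WT pools 4 and 6. Both mutant pools were above both WT pools, and the pools of each genotype also stood well apart from each other. The mutant mean was 55.5 ± 27.1 TPM and the WT mean 6.24 ± 3.93 TPM (each ± is an SD of n = 2 pools), a ratio of 8.89. Log2 differences are given on the log2(TPM + 1) scale, except under settings that change the scale. This scale understates ratios of low values. The difference for *Msx1* was 2.99 (SE 0.51). Between like pools it was 1.02 in *Shh*-/- and 1.17 in WT, the widest gap within WT among the 6 genes.

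*Msx2* (ENSMUSG00000021469.9, chr13:53466884-53473074, minus strand), which acts with *Msx1* and is known for skull vault growth, was at 25.7 and 14.1 TPM in *Shh*-/- and 6.2 and 4.14 TPM in WT. The groups did not overlap, and pool 1 was again the higher mutant pool and pool 4 the higher WT pool. The means were 19.9 ± 8.2 and 5.17 ± 1.46 TPM, a ratio of 3.84 and a log2 difference of 1.72 (SE 0.34). *Msx1* was thus present at 2.91 and 2.58 times the *Msx2* TPM in the mutant pools and at 1.45 and 0.837 times in the WT pools. The balance within the pair lay further towards *Msx1* in both mutant pools. *Msx3*, the remaining gene of the family and known from the dorsal neural tube, was at 0.163 TPM or less in all 4 pools.

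*Prrx1* (ENSMUSG00000026586.16, chr1:163245119-163313710, minus strand), a broad marker of limb, face and body wall mesenchyme, was at 177.8 and 128.6 TPM in *Shh*-/- and 65.6 and 71.1 TPM in WT. The WT pools were close together and the mutant pools lay above them. The means were 153.2 ± 34.8 and 68.4 ± 3.93 TPM, a ratio of 2.24 and a log2 difference of 1.13 (SE 0.18).

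*Prrx2* (ENSMUSG00000039476.13, chr2:30834972-30881251, plus strand), which overlaps with *Prrx1* in jaw and limb development, was at 197.3 and 184.9 TPM in *Shh*-/- and 142.5 and 107.7 TPM in WT. Here the mutant pools were close together and the WT pools apart, with no overlap. The means were 191.1 ± 8.73 and 125.1 ± 24.6 TPM, a ratio of 1.53 and a log2 difference of 0.62 (SE 0.16). The *Prrx2* to *Prrx1* ratio of TPM was 1.11 and 1.44 in the mutant pools and 2.17 and 1.51 in the WT pools. By read coverage per aligned gigabase the same ratio was 0.0895 and 0.118 in *Shh*-/- against 0.155 and 0.131 in WT. The ratio was lower in both mutant pools by either measure, but which of the genes is the more abundant turned with the measure.

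*Alx4* (ENSMUSG00000040310.12, chr2:93642384-93681339, plus strand), a regulator of anterior limb and skull patterning, was at 16.7 and 10.8 TPM in *Shh*-/- and at 0.766 and 0.312 TPM in WT. It was the lowest of the 6 genes in WT and close to *Alx1* and *Msx2* in the mutant. The means were 13.8 ± 4.18 and 0.539 ± 0.321 TPM, a ratio of 25.6 and a log2 difference of 3.25 (SE 0.29). Both WT values are under 1 TPM, so the ratio has a small and poorly resolved denominator.

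*Alx1* (ENSMUSG00000036602.13, chr10:103007846-103029054, minus strand), required in the frontonasal mesenchyme, was at 14.3 and 25.8 TPM in *Shh*-/- and 22.7 and 24.6 TPM in WT. *Shh*-/- pool 1 alone was low, and pool 2 was above both WT pools. The means were 20.0 ± 8.1 and 23.7 ± 1.33 TPM, a ratio of 0.846 and a log2 difference of -0.28 (SE 0.29), which became 0.12 without *Shh*-/- pool 1. *Alx4* stood at 1.17 and 0.421 times the *Alx1* TPM in the mutant pools and at 0.0337 and 0.0127 times in the WT pools.

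The 6 genes together took 506.4 and 400.5 TPM in *Shh*-/- and 246.8 and 211.4 TPM in WT. By TPM, the *Prrx* genes held 74.1 and 78.3% of this sum in *Shh*-/- and 84.3 and 84.6% in WT, and by coverage per aligned gigabase 42.4 and 43.8% against 46.1 and 50.6%. Their share was lower in both mutant pools by either measure, while its size depended on the *Prrx2* level. The *Msx* share of TPM was 19.8 and 12.6% in the mutant pools against 6.17 and 3.6% in the WT pools. The *Alx* share of TPM was 6.13 and 9.14% against 9.52 and 11.8%. By TPM, which is per length, the order in *Shh*-/- was *Prrx2*, *Prrx1*, *Msx1*, *Alx1*, *Msx2* and *Alx4*, and in WT it was *Prrx2*, *Prrx1*, *Alx1*, *Msx1*, *Msx2* and *Alx4*. Pools of neighbours in the order overlapped for *Alx1* with *Msx2* and *Msx2* with *Alx4* in the mutant, and for *Msx1* with *Msx2* in WT. The pools of all other neighbours did not overlap.

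**Figure D2:**
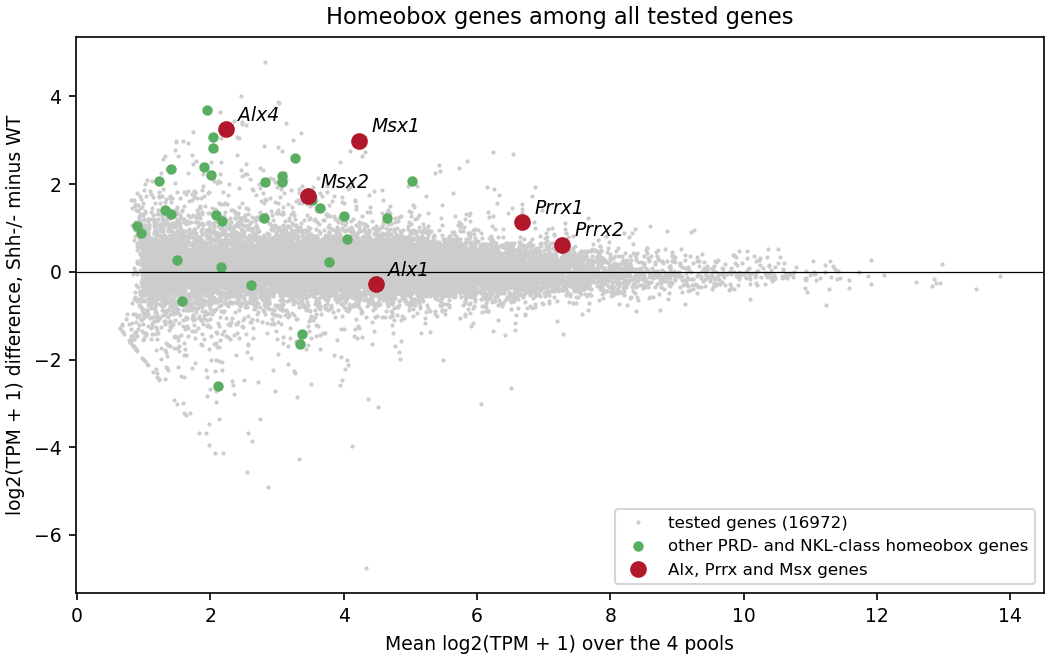
Log2 difference of each tested gene (*Shh*-/- minus WT, log2(TPM + 1)) against its mean level, with the 6 genes in red, other tested paired-class and NK-like genes in green and the rest of the 16972 tested genes in grey. *Alx4* (3.25) and *Msx1* (2.99) lie far above the median of 0.08, *Prrx1* and *Prrx2* sit at higher levels with 1.13 and 0.62, and *Alx1* lies at -0.28.

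The level of *Prrx2* depended on the column of the tables that was read. For a gene with a single transcript, the mean coverage per aligned gigabase was taken to equal the FPKM. Over 9421 genes with an FPKM above 5 in all pools the median gene had 70.3% of that value. *Prrx2* had 2.78, 2.84, 2.5 and 3.01% in the 4 pools, a share reached or undercut by 39 (0.414%) of those genes, itself included. *Alx1* had 88.6 to 89.0%, *Msx2* 72.6 to 74.0%, *Msx1* 62.2 to 62.3%, *Prrx1* 34.5 to 34.9% and *Alx4* 74.8 to 100.0%.

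By coverage per aligned gigabase, *Prrx2* was at 2.63 and 2.62 in *Shh*-/- and 1.78 and 1.62 in WT. On this scale it was the lowest of the 6 genes in *Shh*-/- and second lowest in WT, where TPM placed it highest in both. *Prrx1* led by coverage, at 29.4 and 22.2 in *Shh*-/- and 11.5 and 12.4 in WT, followed in the mutant by *Msx1* at 22.3 and 11.2, where the pools of these 2 genes overlapped. The separation of the genotypes was the same by both columns: both mutant pools stayed above both WT pools for *Prrx2*, *Prrx1*, *Msx1*, *Msx2* and *Alx4*, and *Alx1* overlapped at 6.08 and 11.4 against 10.1 and 10.9. Why the *Prrx2* columns differ was not tested.

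**Figure D3:**
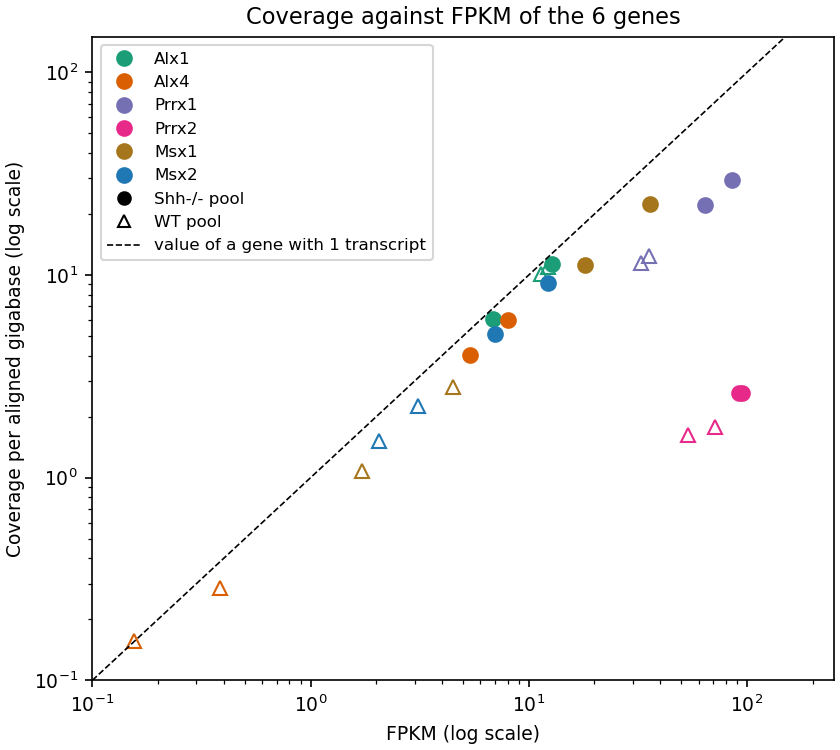
Mean coverage per aligned gigabase against FPKM (both log axes) for the 6 genes in the 4 pools, with filled circles for *Shh*-/-, open triangles for WT and a dashed line where a gene with 1 transcript was taken to lie. *Prrx2* lies far below the line in all 4 pools, at 2.5 to 3.01% of it, and the other 5 genes at 34.5 to 100.0%.

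The genes beside each locus were read to see whether the differences extended along the chromosome, and of 15 tested neighbours 0 passed the adjusted threshold (3 at an unadjusted p under 0.05, limma). *Ext2*, a heparan sulfate polymerase gene that overlaps *Alx4* on the other strand, was at 66.3 and 58.4 TPM in *Shh*-/- and 46.7 and 39.9 in WT (log2 difference 0.52, SE 0.14, limma adjusted p = 0.129). The libraries were stranded, so reads of *Ext2* and *Alx4* can be told apart where the counting used strand. *Cytl1*, 80665 bases from *Msx1*, was at 4.5 and 4.12 TPM in *Shh*-/- and 0.976 and 0.156 TPM in WT (1.81, SE 0.32, adjusted p = 0.0818), while *Stx18*, 214159 bases away on the other side, was at 20.8 to 22.8 TPM in all 4 pools. *Sfxn1*, 598771 bases from *Msx2*, lay the opposite way to *Msx2*, at 54.8 and 57.3 TPM against 83.2 and 89.5 (-0.61, SE 0.10, adjusted p = 0.0784).

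Around *Prrx1*, the same-strand transcripts *Gm26523* and *Gm37644* overlap the gene and had log2 differences of 0.85 and 0.74 (adjusted p = 0.247 and 0.204). Reads cannot be assigned with certainty between these and *Prrx1*, and *Gm20471*, on the other strand, was at 0.161 to 1.18 TPM. The flanking *Gorab* gave -0.25 (adjusted p = 0.42). *Fmo1* was at 5.18 and 7.87 TPM in *Shh*-/- and 20.1 and 0.88 TPM in WT, where WT 4 alone was high. Beside *Prrx2*, *Asb6* gave 0.16 and *Ptges* 0.03 (adjusted p = 0.561 and 0.928). Beside *Alx1*, *Rassf9* gave 0.29 and the predicted gene *Gm17028*, 425 bases away, 0.13 (adjusted p = 0.475 and 0.815). Small differences here turned sign under other settings, among them *Fmo1* (0.24), which was -1.51 without WT 6. The remaining flanking genes gave 0.27 for *Cd82* and -0.09 for *Accs* by *Alx4*, and 0.18 for *Sptlc1* by *Msx2* (adjusted p = 0.747, 0.787 and 0.34).

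Upstream sequence was searched for the homeodomain core TAATTA, which is its own reverse complement, and for the GLI site GACCACCCA with its reverse TGGGTGGTC. The windows were the 250 bases before each RefSeq gene start on GRCm38.p6, with entries for 4 of the 6 genes (*Prrx1*, *Prrx2*, *Msx1* and *Msx2*). TAATTA occurred in 1590 of 32851 windows (4.84%) and had 1 match each for *Prrx1*, 173 bases before the start, and *Msx2*, 187 bases before. The *Msx2* match lies inside the gene span that the tables list, which begins further upstream than the RefSeq start. The 30 bases around each match, with the match itself in capitals, come from chr1:163313806-163313835 and chr13:53472950-53472979, both on the minus strand.
Prrx1: gcaagggaatgaTAATTAgacctttatttt
Msx2: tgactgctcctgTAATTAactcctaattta
The GLI site was in 74 of all windows (0.225%) and in none of the 4. A match is letters only, and no match says only that these letters are not in this window.

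The genes with the most similar profiles over the 4 pools were found among 12531 genes whose TPM averaged 5 or more, by the root mean square distance between mean-centred log2 values. The nearest to *Alx1* were *Klf1* (distance 0.026), an erythroid transcription factor, and *Tmx2* (0.032). *Klf1* was at 6.73 and 13.2 TPM in *Shh*-/- and 11.3 and 12.4 in WT, and so shared the low value of *Shh*-/- pool 1. The erythroid markers as a list were also lowest there, at 11718.9 TPM in sum against 15846.0 to 18267.1 in the other 3 pools, and their part in the *Alx1* value was not tested. The nearest to *Alx4* were *Crym* (0.11), at 69.6 and 46.1 against 6.52 and 5.31 TPM, and the homeobox gene *Tlx3* (0.13).

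*Socs2*, a feedback inhibitor of cytokine signaling, was nearest to *Prrx1* (0.015), at 44.4 and 31.5 against 16.1 and 17.6 TPM, followed by *Rab15* (0.064). *Hspa12b* (0.014) and *2200002D01Rik* (0.019) were nearest to *Prrx2*. *Pax8*, a paired-box gene of thyroid and kidney, was nearest to *Msx1* (0.16), at 14.8 and 9.56 TPM in *Shh*-/- and 1.43 TPM in WT 4 and listed at 0 in WT 6. *Dlx6os1* followed (0.21). *Col9a2*, a cartilage collagen gene, was nearest to *Msx2* (0.13), at 37.1 and 23.9 against 11.4 and 8.37 TPM, followed by *Skida1* (0.15). With only 4 pools many genes have similar profiles, and these distances are a description.

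The other homeobox genes of the same classes were examined next, as lists. Of 29 further paired-class genes, 9 had enough RNA to be tested (mean TPM 1 or more), of which 2 rose and 0 fell (7 at an unadjusted p under 0.05, limma). Their median log2 difference was 1.27, and 7 of the 9 had both mutant pools above both WT pools. *Pax3*, an early neural crest and muscle precursor gene, was at 3.77 and 3.84 TPM in *Shh*-/- and 0.27 and 0.0392 in WT (2.06, SE 0.23, adjusted p = 0.047). *Phox2a*, an autonomic neuron gene, was at 22.3 and 23.2 against 4.23 and 1.99 TPM (2.59, SE 0.30, adjusted p = 0.0493). Among the low genes, 8 were listed at 0 in all pools, and *Drgx* was not found under that symbol.

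Of 45 further NK-like genes, 23 were tested, of which 5 rose and 0 fell (20 at an unadjusted p under 0.05), with a median of 1.40. *Hmx1*, a gene of sensory ganglia and the eye and ear region, was at 15.6 and 10.6 TPM in *Shh*-/-, listed at 0 in WT 4 and at 0.165 TPM in WT 6 (adjusted p = 0.0323). The T-cell leukemia homeobox genes *Tlx1*, *Tlx2* and *Tlx3*, known from cranial sensory and autonomic neurons and arch tissue, rose by 2.82 (SE 0.23), 2.19 (SE 0.21) and 3.07 (SE 0.28), with adjusted p = 0.0323, 0.0422 and 0.0412. *Lbx1*, a gene of migrating muscle precursors and spinal interneurons, was at 6.08 and 3.98 against 0.191 and 0.162 TPM (2.33, SE 0.26, adjusted p = 0.0472). The 18 other tested genes of the list did not pass.

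The *Dlx* genes, which pattern the pharyngeal arches and share the NK-like list, had both mutant pools above both WT pools for 5 of 5 tested members, but 0 passed the adjusted threshold (4 at an unadjusted p under 0.05, limma). *Dlx5* gave 2.05 (SE 0.50, adjusted p = 0.119), *Dlx6* 2.04 (SE 0.45, 0.104) and *Dlx1* 1.64 (SE 0.25, 0.0715). The opposite order, with both mutant pools below WT, was found for 4 of the 23 tested NK-like genes. These were *Nkx2-1*, *Nkx2-5*, *Nkx6-1* and *Barx2*, named after their values were seen, with -1.64 (SE 0.25), -1.42 (SE 0.22), -2.62 (SE 0.64) and -0.66 (SE 0.20), and none passed the test (limma adjusted p = 0.0715, 0.0697, 0.118 and 0.148). *Nkx2-1* is the defining gene of the ventral foregut.

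**Figure D4:**
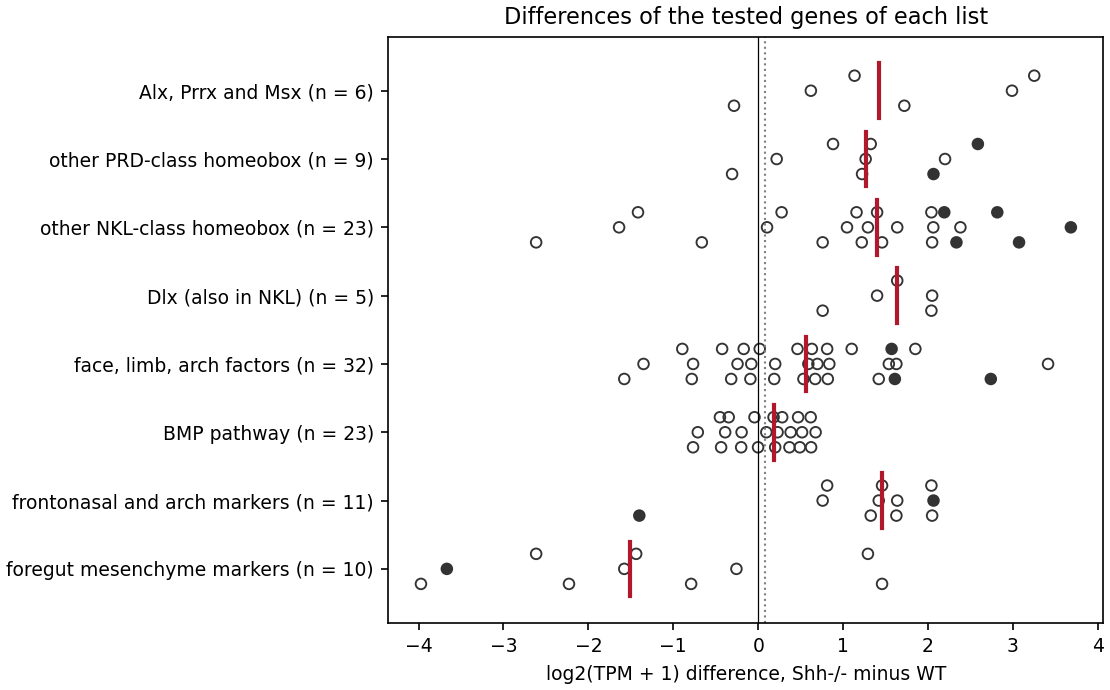
Log2 difference of each tested gene in the lists (*Shh*-/- minus WT, log2(TPM + 1)), with filled points for genes past an adjusted p of 0.05, red bars for list medians and a dotted line at the median of all tested genes. The 6 genes were part of the fit, but no test is given for them. They are drawn open whatever their result. The NK-like and paired-class lists have medians of 1.40 and 1.27, the BMP list 0.18 and the mesenchyme partner list 0.56.

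BMP pathway genes were read because *Msx* genes are known BMP targets. Of 24 listed, 23 were tested, and 0 passed the adjusted threshold (7 at an unadjusted p under 0.05, limma, beside 24.8% of all tested genes). The median log2 difference was 0.18, beside 0.08 for all tested genes, with 13 positive and 10 negative. Among ligands, *Bmp2* was at 1.6 and 2.5 TPM in *Shh*-/- and 4.03 and 4.24 in WT (-0.77, SE 0.23, adjusted p = 0.149), while *Bmp4*, a gene known to act upstream of *Msx1*, was at 63.9 and 54.1 against 37.7 and 38.2 TPM (0.62, SE 0.13, adjusted p = 0.0987). *Bmp2* and *Bmp4* thus lay on opposite sides, neither past the threshold. The ligands *Bmp5*, *Bmp6* and *Bmp7* overlapped between groups (-0.35, 0.2 and 0.1). All ligands but *Bmp2* were named after their values were seen. The signal transducer *Smad9* gave -0.71 (SE 0.21) and the inhibitor *Smad7* 0.68 (SE 0.31), with adjusted p = 0.146 and 0.255. The BMP response genes *Id1* and *Id3* had both mutant pools above both WT pools, with 0.47 (SE 0.14) and 0.49 (SE 0.11, limma adjusted p = 0.144 and 0.108). *Id4* did so as well (0.18), whereas *Id2* and *Smad6* overlapped between groups (-0.04 and 0.23). *Bambi* had both mutant pools below both WT pools (-0.2). The *Id* genes, *Smad6* and *Bambi* were named after their values were seen. *Bmp4* also belongs to a list of 5 genes known as targets of *Prrx* or *Msx* factors, chosen with these results known, of which *Twist1* rose and 0 fell (2 at an unadjusted p under 0.05).

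Of 34 transcription factors and receptors of face, arch and limb mesenchyme, 32 were tested, of which 3 rose and 0 fell (21 at an unadjusted p under 0.05). *Twist1*, a mesenchymal bHLH factor, was at 147.0 and 125.0 TPM in *Shh*-/- and 46.1 and 43.8 in WT (1.57, SE 0.12, adjusted p = 0.0323). *Eya2*, a transcriptional coactivator of cranial placodes and muscle precursors, was at 26.1 and 21.4 against 7.47 and 6.7 TPM (1.61, SE 0.17, adjusted p = 0.0449). The list did not lie on 1 side: 21 differences were positive and 11 negative, and *Osr1*, a gene of foregut and lateral plate mesenchyme named after its values were seen, was at 11.5 and 21.8 TPM against 56.4 and 43.3 (-1.58, SE 0.32, adjusted p = 0.0966).

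Markers of the cell types that the dissected tissue could hold were summed beside the 6 genes. Of 11 tested frontonasal and arch markers, 10 had both mutant pools above both WT pools, with sums of 215.3 and 167.9 TPM in *Shh*-/- and 110.8 and 80.0 TPM in WT. In this list 1 gene rose (*Pax3*) and 1 fell, and 4 of its members are *Dlx* genes. Of 11 neural crest markers, 10 had both mutant pools above, with sums of 381.3 and 311.5 against 217.6 and 173.5 TPM, and 3 rose (*Zic1* by 2.27, *Ngfr* by 1.75 and *Nr2f1* by 1.33, adjusted p = 0.0449, 0.047 and 0.0463). These sums were highest in *Shh*-/- pool 1, as were the TPM of *Msx1*, *Msx2*, *Prrx1*, *Prrx2* and *Alx4*. The same pool was also highest for the foregut endoderm (696.6 TPM) and surface ectoderm (177.8 TPM) marker sums. The neuronal, striated muscle and endothelial sums were highest in *Shh*-/- pool 2. Those of foregut mesenchyme and limb bud were highest in WT 4, and that of erythroid markers in WT 6.

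Of 10 neuronal markers 9 had both mutant pools above, with sums of 791.3 and 868.1 against 273.2 and 231.2 TPM, and 5 rose (*Stmn2*, *Tubb3*, *Elavl3*, *Prph* and *Nefl*, log2 differences 1.8 to 2.72). Of 9 tested striated muscle markers 6 had both mutant pools above, with sums of 205.7 and 285.9 against 116.0 and 117.3 TPM, and the myosin genes *Myh6* and *Myh7* rose (1.76, SE 0.18, and 2.13, SE 0.21, adjusted p = 0.0448 and 0.0422). Among 8 endothelial markers it was 7, with sums of 359.0 and 416.8 against 242.2 and 228.6 TPM, and the receptor gene *Tie1* rose (1.17, SE 0.13, adjusted p = 0.047). Most foregut mesenchyme markers went the other way: 7 of 10 had both mutant pools below and 2 above. The sums were 77.6 and 134.1 against 295.8 and 235.4 TPM, and *Foxf2* fell (-3.67, SE 0.32, limma adjusted p = 0.0383). The 2 above, named after their values were seen, were *Barx1* (1.46) and *Nkx2-3* (1.29). *Barx1* is also in the frontonasal and arch list.

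The sums of limb bud markers overlapped, at 53.0 and 48.6 against 56.4 and 43.1 TPM. Of 6 tested, 2 had both mutant pools above, 2 below and 2 overlapped, 0 passed (3 at an unadjusted p under 0.05, limma), and the distal limb genes *Hoxa13*, *Hoxd11*, *Hoxd12* and *Hoxd13* were listed at 0 in all 4 pools. Of 10 foregut endoderm markers, 5 had both mutant pools below both WT pools and 3 above, and 0 passed the threshold (5 at an unadjusted p under 0.05, limma). *Foxa2*, a foregut endoderm transcription factor, was at 5.34 and 9.12 TPM in *Shh*-/- and 29.2 and 39.8 in WT (-2.13, SE 0.29, limma adjusted p = 0.0602). The others below were *Nkx2-1*, *Foxa1*, *Shh* and *Cdh1*, and those above were *Epcam*, *Krt8* and *Krt18*. The list summed to 696.6 and 608.9 against 657.4 and 682.0 TPM. *Cldn6*, *Krt18*, *Krt8* and *Epcam* had the largest values in these sums, and *Epcam* is also in the surface ectoderm list. Of 8 tested surface ectoderm markers, 3 had both mutant pools above and 3 below, with sums of 177.8 and 147.2 against 127.4 and 145.6 TPM. *Wnt6*, a signaling ligand of the ectoderm, rose (20.5 and 15.7 against 3.13 and 2.84 TPM, log2 difference 2.25, SE 0.19, adjusted p = 0.0383). The part of these cell types in the differences of the 6 genes was not tested. With undivided dissected tissue in each pool, it cannot be told apart from a difference within cells.

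The log2 difference of each gene was recomputed under 13 other settings, some of which change the scale. It ranged from 2.28 to 4.51 for *Alx4*, 2.41 to 3.57 for *Msx1*, 1.31 to 2.13 for *Msx2*, 0.90 to 1.37 for *Prrx1*, 0.25 to 0.82 for *Prrx2* and -0.69 to 0.12 for *Alx1*. *Prrx2* was at 0.25 after a correction for GC content and transcript length, and *Alx4* at 4.51 with a pseudocount of 0.1. *Alx1* was the gene among the 6 whose sign turned, and it turned in the setting without *Shh*-/- pool 1. The filters on TPM could not move a difference. For the genes whose pools do not overlap, leaving out 1 pool could not turn the sign.

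**Figure D5:**
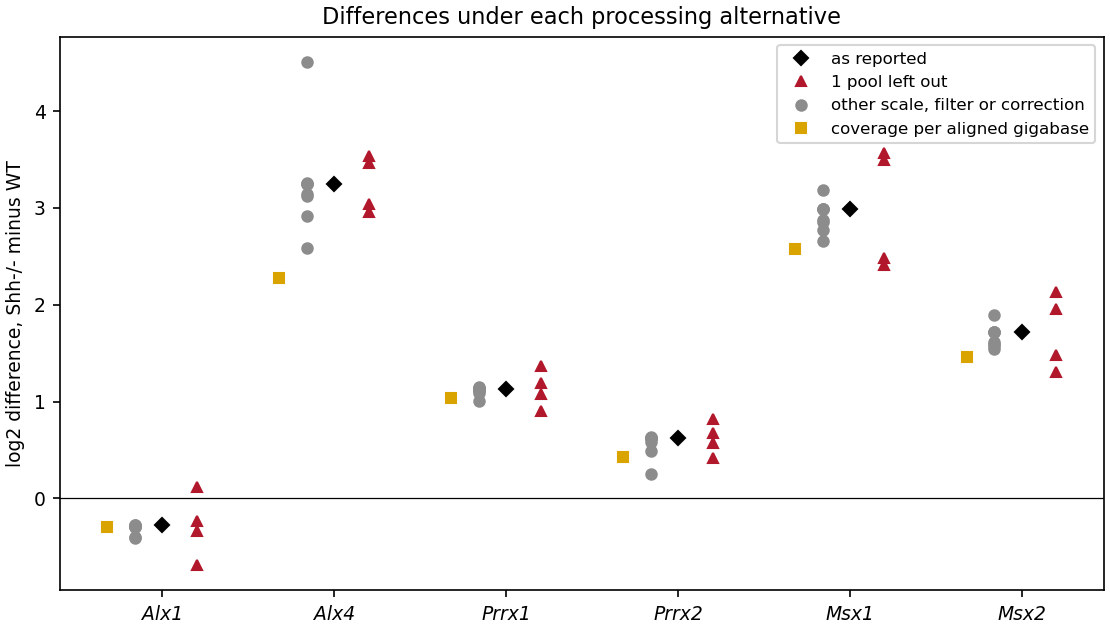
Log2 difference (*Shh*-/- minus WT) of each of the 6 genes in the reported fit and under 13 other settings. Points of *Alx4*, *Msx1*, *Msx2*, *Prrx1* and *Prrx2* stay above 0 throughout, and those of *Alx1* run from -0.69 to 0.12. For the former genes, the filters on TPM and leaving out 1 pool could not turn the sign.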

How the data were processed

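Poly(A)-selected, stranded RNA-seq of 4 larynx pools was used. The authors aligned single-end reads to mm10 with HISAT2 2.1.0 and built gene tables with StringTie 1.3.6 (versions from the submitters' processing notes); the annotation release is not given in the sources used here. The deposited coverage is the mean read depth per gene without normalization. The deposited FPKM values are coverage scaled by aligned bases, and the deposited TPM values are FPKM scaled to a fixed sum in each library. No counts were used, so the precision rests on the spread of 2 pools in each group. The RNA integrity numbers were 8.0 and 7.7 for *Shh*-/- 1 and 2, and 7.7 and 9.0 for WT 4 and 6. The part of RNA quality in the differences was not tested.

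Rows of a gene ID were summed. Of 46983 genes, the 16972 whose TPM averaged 1 or more were fitted with limma 3.58.1 (R 4.3.3; eBayes with trend) on log2(TPM + 1), with no covariate and Benjamini-Hochberg adjustment at 0.05. An exact permutation of 2 against 2 cannot go below p = 0.33 and was not used. Each SE and p-value uses the spread between pools of embryos after eBayes drew it towards a trend over all tested genes. For the members, the SE was below the pooled SD of their own pools. It was 0.51 against 0.77 for *Msx1* and 0.16 against 0.21 for *Prrx2*. The 37 mitochondrial genes are at 0 in every library, so a listed 0 can be a failed estimate.

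The members and lists were chosen with earlier results of these data known. Named genes were the members, listed genes past the threshold or otherwise the 3 with the largest differences, the overlapping and nearest expressed genes, and the 2 most similar profiles. Exceptions are marked. Alternatives were a pseudocount of 0.1, no filter, a minimum mean TPM of 5, median centring, quantile normalization, leaving out haemoglobin genes, FPKM, eBayes without trend, an adjusted p of 0.10, GC content and length correction (splines with 5 degrees of freedom, 16887 genes) and each pool left out. Coverage per aligned gigabase was added after the data were seen. Scripts were tested on simulated data. Homeoboxes came from GENCODE M21 and upstream windows from RefSeq (GRCm38.p6), read with Biopython 1.88. Some items are not reported here.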

Additional observations from a re-analysis of the deposited data

How the results depend on the processing

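The 6 genes kept their sign under every setting run, except *Alx1*, which went from -0.28 to 0.12 without *Shh*-/- replicate 1 and ranged from -0.69 to 0.12 with 1 pool left out. For part of the settings the sign could not turn. A filter on TPM leaves the difference of a gene as it was. Leaving out 1 pool cannot turn the sign of a gene whose pools do not overlap between groups. Their median of 1.43 stayed between 1.11 and 1.75. Beyond the spread between pools, *Alx4* moved to 4.51 with a pseudocount of 0.1, 2.59 with FPKM and 2.28 with coverage per aligned gigabase, and *Prrx2* to 0.25 after the GC content and length correction. A smaller pseudocount widens differences of low values by construction. *Alx4* has lower values by FPKM and coverage than by TPM (8.03 and 6.01 beside 16.7 in *Shh*-/- 1). The same pseudocount of 1 therefore narrows its difference on those scales, also by construction. Other causes of the shifts were not tested. Of 58 other genes recomputed, 51 kept their sign. With 1 pool left out, *Fmo1* ranged from -1.51 to 1.98, *Cd82* from -0.45 to 1.0, *Accs* from -0.27 to 0.1, *Gm17028* from -0.22 to 0.48, *Ptges* from -0.15 to 0.22, and *Stx18* from -0.06 to 0.07. *Ptges* and *Stx18* also turned with quantile normalization (both -0.12), median centring (-0.1 and -0.12) and the GC content and length correction (-0.25 and -0.18), *Stx18* with FPKM (-0.02), and *Asb6* with the GC content and length correction (-0.23). *Nkx2-5* passed the threshold with median centring (-1.54) and the GC content and length correction (-1.82). Median centring removed a shift of 0.13.

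The number of genes past the threshold depended on the setting: 123 in the reported fit, 69 with a pseudocount of 0.1, 858 at an adjusted p of 0.10, 0 with no filter on TPM (5011 at an unadjusted p under 0.05), 0 with coverage per aligned gigabase (4375) and 0 to 16 with 1 pool left out (2070 to 3761, limma). Of paired-class genes, 2 passed, against 0 with a pseudocount of 0.1, no filter or a mean TPM of at least 5, 1 with FPKM, without trend or with the GC content and length correction, and 6 at an adjusted p of 0.10. Of NK-like genes, 5 passed, against 2 with a pseudocount of 0.1, 0 with no filter and 11 at an adjusted p of 0.10. Of mesenchyme factors, 3 passed, against 0 with no filter and 11 at an adjusted p of 0.10. Of BMP genes, 0 passed, against 1 (*Bmp4*) at an adjusted p of 0.10. With any 1 pool left out, 0 of each of these lists passed (3 to 22 per list at an unadjusted p under 0.05), and such fits take the lone pool to vary like the other group. No paired analysis was possible because the replicate numbers of the groups (1 and 2, 4 and 6) are not shared. TPM carries no counts, so the number of reads behind *Alx4* in WT, under 1 TPM, is not given. Its mean read depth was 0.817 in WT 4 and 0.464 in WT 6. In *Shh*-/- 1 and *Shh*-/- 2 it was 8.24 and 12.6.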
